A study of Mus musculus with 13 samples.

Results

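The expression of 10 skeletal muscle genes was followed in the nonhematopoietic stroma of the mouse thymus: Myog, Ckm, Acta1, Myl1, Ttn, Chrna1, Actc1, Mylpf, Tnnt3 and Des. They were chosen by name as genes of the muscle-like cells of the thymus and of skeletal muscle, and each was found once among the 53379 genes of the count table. Bulk RNA-seq of CD45- thymic stromal cells from wild type C57BL/6 mice, 2 months old, gave 13 libraries. Of these, 4 were from mice at steady state that had been given PBS and were labelled untreated, and 3 each were from mice on day 1, day 4 or day 7 after sublethal total body irradiation (TBI), which acutely damages the thymus. All libraries share the strain, genotype, age and the selection of CD45- cells. The steady-state libraries are named below by the day and replicate of the PBS column they came from, since the table does not pair them with the replicate numbers of the labels.

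The thymic medulla displays proteins of peripheral tissues to developing T cells. Part of this display comes from mimetic cells, thymic epithelial cells (TECs) that take on the transcription program of another tissue, and muscle-like (myoid) cells that express contractile proteins and the acetylcholine receptor are among them. In skeletal muscle, the transcription factor myogenin (Myog) drives the last steps of differentiation together with other factors that bind the E-box CANNTG. Its targets include genes of the sarcomere, in which thick filaments of myosin slide along thin filaments of actin, and subunits of the acetylcholine receptor, the target of autoantibodies in myasthenia gravis.

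The promoter sequences of the 3 members with the largest differences at day 7 in the tests against day 1 or day 4, Myog, Chrna1 and Mylpf, are shown because myogenic factors are known to act through E-boxes next to the start of such genes. RefSeq (GRCm38.p6) gave a promoter for 9 of the 10 members, all but Tnnt3, and the 250 bases before the start were read 5′ to 3′ on the strand of the gene. Capitals mark every CANNTG, which reads the same on both strands. The windows are chr1:134289754-134290003 on the plus strand for Myog, chr2:73580339-73580588 on the minus strand for Chrna1, and chr7:127211358-127211607 on the plus strand for Mylpf, the last of which lies inside the gene as GENCODE annotates it.
Myog: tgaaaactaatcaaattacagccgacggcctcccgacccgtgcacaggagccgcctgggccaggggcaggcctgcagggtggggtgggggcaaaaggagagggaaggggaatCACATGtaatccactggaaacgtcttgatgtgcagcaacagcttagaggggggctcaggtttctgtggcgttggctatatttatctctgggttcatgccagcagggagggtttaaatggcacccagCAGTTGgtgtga
Chrna1: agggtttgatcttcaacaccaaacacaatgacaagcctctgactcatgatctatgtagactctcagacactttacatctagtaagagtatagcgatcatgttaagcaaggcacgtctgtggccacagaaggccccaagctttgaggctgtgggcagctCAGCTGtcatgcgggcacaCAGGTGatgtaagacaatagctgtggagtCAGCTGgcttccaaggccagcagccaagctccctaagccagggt
Mylpf: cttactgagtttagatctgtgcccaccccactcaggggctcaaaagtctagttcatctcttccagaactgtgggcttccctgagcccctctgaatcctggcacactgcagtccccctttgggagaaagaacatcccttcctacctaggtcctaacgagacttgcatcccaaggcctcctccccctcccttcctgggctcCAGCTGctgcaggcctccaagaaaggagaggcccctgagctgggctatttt
In Myog the E-boxes begin 138 and 12 bases before the RefSeq start, in Chrna1 92, 73 and 44 bases and in Mylpf 51 bases. The Myog E-box at 12 bases lies past the start of that gene as GENCODE annotates it. A CANNTG was present in 8 of the 9 members and in 66.2% of 32851 promoter windows of this length, so its presence does not set the members apart. The form CAGCTG, which is part of the CANNTG count, was present in 6 of the 9 members (Ckm, Acta1, Myl1, Chrna1, Mylpf and Des) and in 13% of all windows. The MEF2 motif, searched on both strands as the exact pattern YTAWWWWTAR, was found in Ttn and in 2.92% of all windows. The CArG box bound by SRF, searched as CCWWWWWWGG, was found in Acta1 and Actc1 and in 1.47% of all windows. Here Y is C or T, W is A or T and R is A or G. A stretch that departs from a pattern at any base, such as ctatatttat in the Myog window, was not counted. These matches are descriptions of the sequence and were not tested.

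Between 15721866 and 52056896 reads were counted per library (median 44078906), and levels are given as counts per 1000000 reads (CPM) after TMM scaling. All 10 members were among the 19984 genes that passed the filter on low counts. Des stood far above the rest, with a mean over 13 libraries of 48.4 CPM per kb of exon (181.5 CPM), followed by Mylpf with 2.41 CPM per kb, Myog with 0.634, Acta1 with 0.612, Actc1 with 0.351, Myl1 with 0.283, Tnnt3 with 0.231, Chrna1 with 0.181, Ckm with 0.0846 and Ttn with 0.0137. Des encodes desmin, an intermediate filament protein of all muscle types. The summed level of 10 markers of smooth muscle and pericytes in the same libraries was between 504.8 and 1307 CPM. Across the 13 libraries the correlation of Des with the mean log2 level of these markers was r = -0.0050. The other 9 members together reached 3.73 to 19.1 CPM. These rest on few reads: Myog on 4 to 141 counts per library, Acta1 on 0 to 90 and Ckm on 1 to 28. The transcription factor genes Myod1, Myf5, Myf6 and Pax7, which specify muscle cells upstream of Myog, had at most 7, 2, 6 and 4 counts in any library and were not tested.

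The labelled cell type was checked against its markers. The 10 TEC markers were detected in all 13 libraries, with sums of 803.3 to 4584 CPM, and fibroblast and endothelial markers were present throughout. The summed level of 8 thymocyte markers, which a CD45- selection should remove, ranged from 20.4 CPM at day 4 to 3941 CPM in day 7 replicate 2. In bulk samples, fewer cells of a type and less RNA per cell cannot be told apart.

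No member passed the threshold (edgeR quasi-likelihood test, Benjamini-Hochberg adjusted p of 0.05 or less) in any of the 6 comparisons between conditions, nor in the test for any difference among the 4 conditions. This was 0 of 10 at day 1 against steady state, where 2.35% of all genes passed, 0 of 10 at day 4 against steady state (0.290% of all genes), and 0 of 10 at day 7 against steady state (0.00500%, which is 1 gene). It was also 0 of 10 at day 4 against day 1 (1.43%), at day 7 against day 1 (8.13%), at day 7 against day 4 (3.90%) and for any difference (6.66%). At an unadjusted p under 0.05 the counts in this order were 0, 3, 2, 0, 3, 2 and 2 of the 10 members, beside 17.2%, 13%, 13.5%, 13.7%, 23.9%, 18.7% and 24.0% of all genes. With DESeq2 they were 0, 0, 1, 0, 2, 0 and 1 members past the adjusted threshold, beside 7.00%, 3.23%, 5.41%, 4.80%, 14.7%, 9.60% and 18.3% of all genes. The median log2 fold change of the members was -0.50 at day 7 against steady state, beside 0.0024 over all genes tested, and 2 of the 10 values were above 0. At day 7 against day 1 it was -0.59 beside 0.05, with 3 of 10 above 0. The comparisons with steady state share the same 4 libraries, so their values are not independent of each other.

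**Figure D1:**
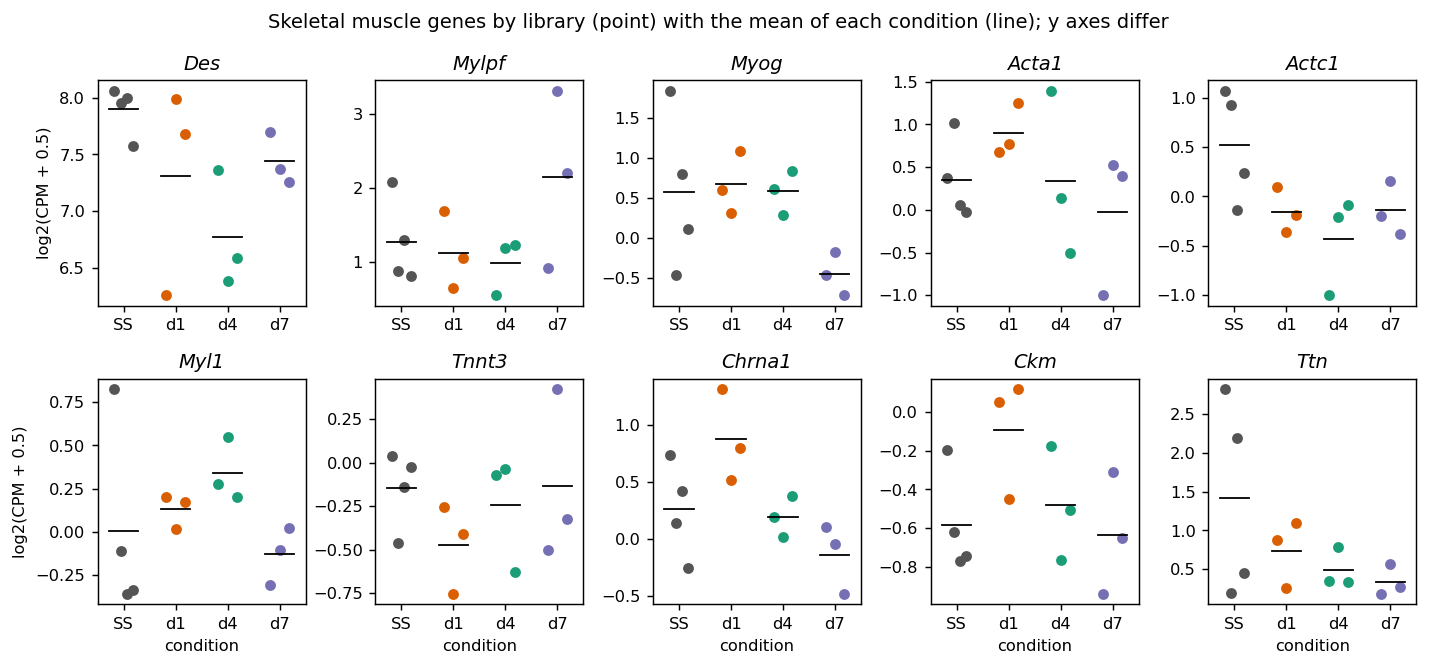
Level of each of the 10 genes as log2(CPM + 0.5) on the y axis (scales differ between panels) in steady state (SS) and on days 1, 4 and 7 after TBI; points are libraries, lines are means. Myog is below its day 1 and day 4 libraries in all 3 day 7 libraries, Mylpf is highest in day 7 replicate 2, and the steady-state libraries of Myog, Ttn and Myl1 are widely spread.

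Myog (ENSMUSG00000026459, chr1:134289989-134292548, GRCm38) encodes myogenin. At steady state it was at 3.09 CPM in the PBS control of day 1 replicate 2, 0.225 in that of day 4 replicate 2, 1.25 in that of day 7 replicate 1 and 0.581 in that of day 7 replicate 2. On day 1 it was at 1.02, 0.743 and 1.63 CPM in replicates 1 to 3, on day 4 at 1.03, 0.720 and 1.30, and on day 7 at 0.226, 0.389 and 0.109. All 3 day 7 libraries were below every library of days 1 and 4, while the range at day 7 overlapped that at steady state, where 1 library was as low as those of day 7. The log2 fold change at day 7 was -2.40 ± 0.77 (SE, edgeR adjusted p = 0.168) against steady state, -2.21 ± 0.80 (adjusted p = 0.109) against day 1 and -2.04 ± 0.80 (adjusted p = 0.185) against day 4. At days 1 and 4 it differed from steady state by -0.19 ± 0.70 and -0.36 ± 0.70.

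The difference at day 7 depended on the test and on the libraries. With DESeq2, Myog passed against steady state (adjusted p = 0.0296, log2 fold change -2.39) and against day 1 (adjusted p = 0.0314, -2.26), and without the PBS control of day 1 replicate 2 it passed against day 1 (edgeR adjusted p = 0.0410, -2.27), as did 10.3% of all genes. Without that same library, the difference from steady state shrank from -2.40 to -1.50 (edgeR adjusted p = 0.438). Over the alternatives the adjusted p ran from 0.0296 to 0.631 against steady state and from 0.0314 to 0.274 against day 1, with the log2 fold change below 0 in each. Column names end in a tag whose meaning is not stated in the sources used here, and its start falls into 3 families. Within the family of 2 day 7 libraries and 1 steady-state library, the difference in mean log2(CPM + 0.5) was 0.15, and in the family with 1 library each it was -0.83. Neither value can be tested. The remaining family holds the PBS controls of day 1 replicate 2 and day 7 replicate 1, the highest for Myog at steady state. It holds no day 7 library, so these controls have no day 7 library of the same family beside them.

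TEC markers moved with Myog. Across the 13 libraries the correlation of Myog with the mean log2 level of the 10 TEC markers was r = 0.80, a description over libraries that share composition and depth. Their summed CPM was 3791, 1089, 2369 and 1083 in the steady-state libraries in the order above, 2098, 1592 and 2960 on day 1, 4584, 3937 and 2922 on day 4 and 1557, 1068 and 803.3 on day 7. The steady-state library with the most Myog thus also had the most TEC marker RNA, and the day 7 sums were below all sums of days 1 and 4. On day 4, however, the sums were high while Myog was close to its day 1 level. Of the 10 TEC markers, all had a negative log2 fold change at day 7 against steady state and 0 passed the threshold, and Aire, the autoimmune regulator of the medulla, was at 1.37, 2.93 and 0.841 CPM on day 7 and between 3.03 and 59.0 CPM at steady state. Myog was also correlated with the fibroblast markers, in the opposite direction (r = -0.75 over the 13 libraries), and with the smooth muscle and pericyte markers (0.53). Its r with the thymocyte, cardiac and endothelial lists was between -0.30 and 0.08. The r of 0.80 therefore does not tie Myog to TEC content alone. The part of TEC content, or of these other cell types, in the result for Myog was not tested.

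**Figure D2:**
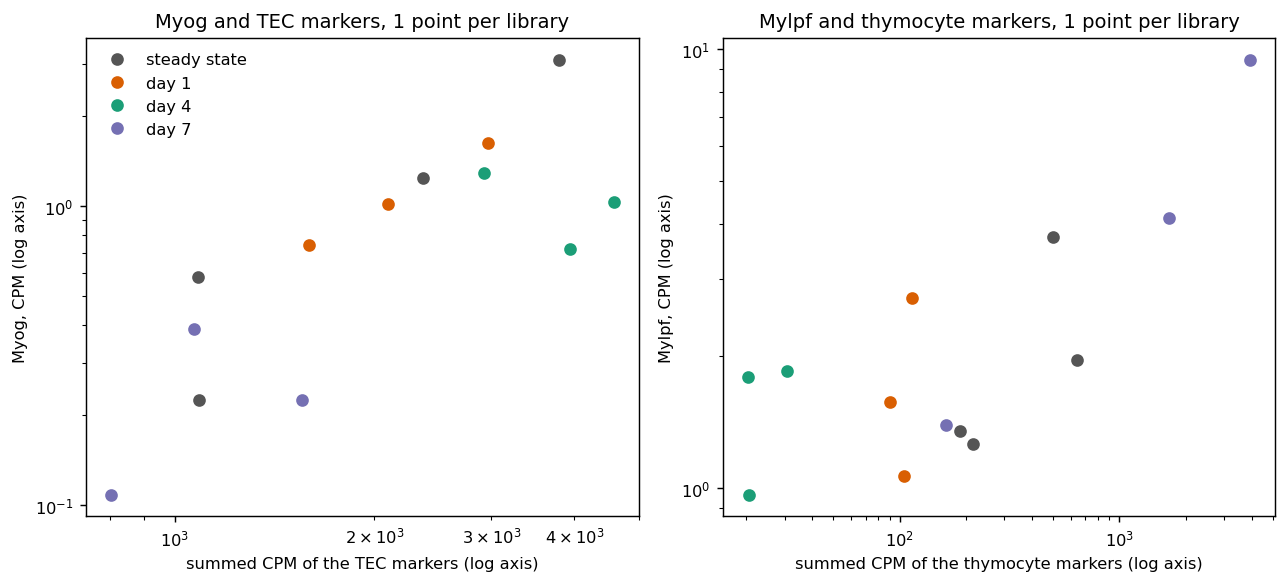
Left, Myog CPM against the summed CPM of 10 TEC markers. Right, Mylpf CPM against the summed CPM of 8 thymocyte markers; all axes are logarithmic, each point is a library, and colors give the condition. Day 7 replicate 3 is lowest for both Myog (0.109 CPM) and the TEC sum (803.3 CPM), and day 7 replicate 2 is highest for both Mylpf (9.44 CPM) and the thymocyte sum (3941 CPM).

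Chrna1 (ENSMUSG00000027107, chr2:73563215-73580338) encodes the α1 subunit of the muscle acetylcholine receptor, which binds acetylcholine at the neuromuscular junction. It was at 1.16, 0.600, 0.839 and 0.339 CPM at steady state, at 1.98, 0.929 and 1.24 on day 1, at 0.645, 0.509 and 0.796 on day 4 and at 0.574, 0.471 and 0.217 on day 7. All day 1 libraries were above all libraries of days 4 and 7. Smooth muscle and pericyte markers moved with it (r = 0.70 over 13 libraries between Chrna1 and the mean log2 level of the 10 markers), with summed levels of 881.4 to 1160 CPM on day 1, 733.1 to 940.2 CPM on day 4, 504.8 to 797.2 CPM on day 7 and 547.8 to 1307 CPM at steady state. Chrna1 was also correlated with the fibroblast markers, in the opposite direction (r = -0.70 over the same 13 libraries). Its r with the TEC, thymocyte, cardiac and endothelial lists was between -0.33 and 0.29. The r of 0.70 therefore does not tie Chrna1 to smooth muscle and pericytes alone. The part of these cell types in the Chrna1 values was not tested. The log2 fold change at day 7 against day 1 was -1.70 ± 0.52 (edgeR adjusted p = 0.0635), the lowest adjusted p of any member. It passed with DESeq2 (adjusted p = 0.00922) and without the PBS control of day 1 replicate 2 (edgeR adjusted p = 0.0410), and the alternatives spanned adjusted p from 0.00922 to 0.185. At day 1 it was 0.89 ± 0.47 above steady state on the log2 scale (adjusted p = 0.356), and at day 7 it was -0.81 ± 0.49 relative to steady state (adjusted p = 0.558). Of its possible 50-base transcript stretches, 3.02% also occur in transcripts of other genes.

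The light chains of myosin differed in pattern. Mylpf (ENSMUSG00000030672, chr7:127208890-127214298), which encodes the regulatory light chain of fast skeletal myosin, was at 3.73, 1.35, 1.96 and 1.26 CPM at steady state, 2.72, 1.07 and 1.57 on day 1, 0.968, 1.79 and 1.85 on day 4 and 1.40, 9.44 and 4.12 on day 7. Only replicates 2 and 3 of day 7 were above the rest of the libraries, and replicate 1 was within the range of every other condition. The log2 fold change at day 7 was 1.26 ± 0.58 against steady state (edgeR adjusted p = 0.372), 1.47 ± 0.64 against day 1 (adjusted p = 0.179) and 1.68 ± 0.65 against day 4 (adjusted p = 0.177). Without day 7 replicate 1 the difference from day 4 was 2.12 and passed (adjusted p = 0.0443), as did 7.26% of all genes, while without day 7 replicate 2 the 3 values were 0.45, 0.58 and 0.74. The thymocyte marker sums in the day 7 libraries, 162.1, 3941 and 1686 CPM, had the same order as Mylpf, and over 13 libraries Mylpf had r = 0.76 with the thymocyte list. All 8 thymocyte markers were detected in every library. The part of thymocyte RNA in the Mylpf values was not tested.

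Myl1 (ENSMUSG00000061816, chr1:66924295-66945404), an essential light chain of fast muscle myosin, was at 1.27, 0.425, 0.280 and 0.291 CPM at steady state, at 0.651, 0.511 and 0.628 on day 1, at 0.710, 0.966 and 0.648 on day 4 and at 0.308, 0.430 and 0.515 on day 7. The day 4 libraries were above the day 7 libraries without overlap, but the fitted difference was small (day 7 against day 4, -0.90 ± 0.56, adjusted p = 0.433). Stretches shared with the pseudogene Mylf-ps make up 11.7% of Myl1, so its level is uncertain.

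The actins and troponin of the thin filament were low and scattered. Acta1 (ENSMUSG00000031972, chr8:123891769-123894751), skeletal muscle actin, was at 0.790, 1.52, 0.538 and 0.484 CPM at steady state, 1.10, 1.21 and 1.88 on day 1, 2.13, 0.597 and 0.204 on day 4 and 0, 0.942 and 0.813 on day 7. Every day 7 library was below every day 1 library, and the fitted difference was -1.26 ± 1.02 on the log2 scale (adjusted p = 0.50). Actc1 (ENSMUSG00000068614, chr2:114047282-114053548), cardiac actin, which developing skeletal muscle also expresses, was at 1.601, 1.40, 0.409 and 0.678 CPM at steady state, 0.566, 0.279 and 0.377 on day 1, 0, 0.369 and 0.444 on day 4 and 0.369, 0.615 and 0.271 on day 7. The PBS controls of day 1 replicate 2 and day 4 replicate 2 were above all other libraries, and the log2 fold change at day 4 against steady state was -1.76 ± 0.72 (adjusted p = 0.342). Actc1 followed the list of 8 cardiac muscle genes more than the other members did (r = 0.81 over 13 libraries, as a description), whose sum was highest in the PBS control of day 4 replicate 2 (12.2 CPM) and in day 7 replicate 2 (11.2 CPM). The part of cardiac tissue in these values was not tested. Between actins, 2.02% of the 50-base stretches of Acta1 and none of those of Actc1 occur in transcripts of other genes.

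Tnnt3 (ENSMUSG00000061723, chr7:142498836-142516009), fast skeletal troponin T, which anchors the calcium switch of the thin filament to tropomyosin, was at 0.526, 0.225, 0.409 and 0.484 CPM at steady state, 0.339, 0.0929 and 0.251 on day 1, 0.452, 0.474 and 0.148 on day 4 and 0.205, 0.840 and 0.298 on day 7. Its ranges overlapped between all pairs of conditions. Like Mylpf it was highest in day 7 replicate 2. Its 6 log2 fold changes lay between -0.79 and 0.93 with SEs of 0.60 to 0.69.

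Ttn (ENSMUSG00000051747, chr2:76703980-76982547) encodes titin, the molecular spring that spans from Z-disc to M-band. It was at 6.53, 0.650, 4.07 and 0.872 CPM at steady state, at 1.33, 0.697 and 1.63 on day 1, at 0.774, 1.23 and 0.759 on day 4 and at 0.636, 0.983 and 0.705 on day 7. The PBS controls of day 1 replicate 2 and day 7 replicate 1 stood above all 11 other libraries, and the other pair of steady-state libraries was within the range after TBI. The log2 fold change was -1.31 ± 0.69 at day 1, -1.71 ± 0.70 at day 4 and -1.97 ± 0.71 at day 7 against steady state (edgeR adjusted p = 0.355, 0.344 and 0.215). Without the PBS control of day 1 replicate 2 these were -0.56, -0.92 and -1.29. The controls high for Ttn are the steady-state libraries of the tag family that holds no day 7 library. Within that family the difference in mean log2 level from steady state was -1.83 at day 1 and -2.15 at day 4. Within the family of 2 day 7 libraries it was 0.36 at day 4 and 0.17 at day 7. In the remaining family it was 0.42 at day 1 and -0.19 at day 7. These values rest on 1 or 2 libraries per group and were not tested.

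Des (ENSMUSG00000026208, chr1:75360329-75368579) was the best measured member, with 2537 to 12178 counts per library. It was at 267.1, 247.0, 256.0 and 189.9 CPM at steady state, 75.9, 254.3 and 204.4 on day 1, 163.7, 82.7 and 95.2 on day 4 and 206.7, 164.8 and 152.1 on day 7. All 3 day 4 libraries were below all 4 steady-state libraries, with means of 113.9 ± 43.6 (SD, n = 3) and 240.0 ± 34.4 CPM (SD, n = 4). The log2 fold change was -1.08 ± 0.36 (edgeR adjusted p = 0.260), between -1.31 and -0.89 over the alternatives. The summed smooth muscle and pericyte markers overlapped between these conditions (733.1 to 940.2 CPM on day 4 and 547.8 to 1307 CPM at steady state). Over 13 libraries Des had r = -0.0050 with the mean log2 level of these markers and 0.52 with the endothelial markers. Its r with the TEC, fibroblast, thymocyte and cardiac lists was between 0.14 and 0.39. The part of these cell types in the Des values was not tested. Des did not vary with the other members: its r with them over 13 libraries was between -0.30 and 0.29. An antisense gene overlaps 5.86% of its exons, and the counting is not stated to use strand.

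Ckm (ENSMUSG00000030399, chr7:19404776-19422841), muscle creatine kinase, which buffers ATP in working muscle, was at 0.373, 0.150, 0.0861 and 0.0969 CPM at steady state, 0.537, 0.232 and 0.587 on day 1, 0.387, 0.0878 and 0.204 on day 4 and 0.0205, 0.307 and 0.136 on day 7. In 2 libraries it had 3 or fewer counts. Its ranges overlapped between all pairs of conditions, and its largest log2 fold changes were 1.33 ± 0.75 at day 1 against steady state (adjusted p = 0.394) and -1.55 ± 0.82 at day 7 against day 1 (adjusted p = 0.274). Exons of an antisense gene overlap 15.5% of its own.

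**Figure D3:**
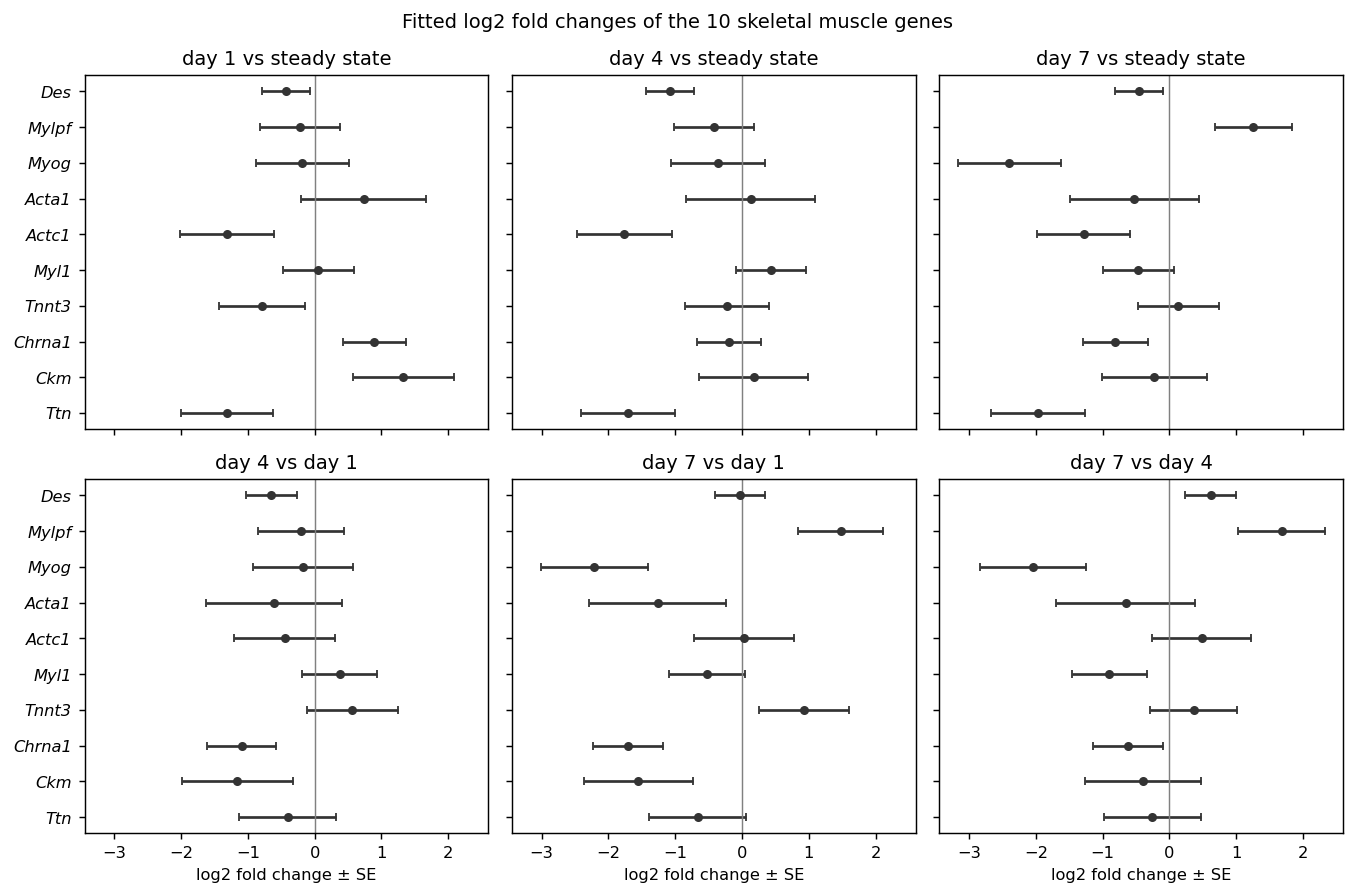
Fitted log2 fold change (x axis) with its SE (bar) for each of the 10 genes (y axis) in the 6 comparisons; genes are ordered by level per kb. At day 7 Myog lies near -2 in all 3 panels and Mylpf between 1.26 and 1.68, and no value passes the adjusted threshold.

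Ranges that did not overlap were counted for each comparison. Against steady state, members with separate ranges were 0 of 10 on day 1 (15.8% of all genes), 1 of 10 on day 4 (Des, below, 14.7% of all genes) and 0 of 10 on day 7 (7.49%). Against day 1, they were 1 of 10 on day 4 (Chrna1, below, 26.3%) and 3 of 10 on day 7 (Myog, Acta1 and Chrna1, below, 27.5%), and against day 4, 2 of 10 on day 7 (Myog and Myl1, below, 26.2%). No share was clearly above that of all genes.

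The members did not vary as a unit. Over the 45 pairs the Pearson correlation of log2(CPM + 0.5) across 13 libraries had a median of 0.17 and ran from -0.30 to 0.76, with 35 pairs above 0. The highest pairs were Myog with Ttn (0.76), Ckm with Chrna1 (0.69), Ckm with Acta1 (0.69) and Myog with Chrna1 (0.68). The PBS control of day 1 replicate 2 was the highest library for 5 of the 10 members (Myog, Myl1, Ttn, Actc1 and Des), and day 7 replicate 2 for Mylpf and Tnnt3. Among all genes tested, 14.3% were highest in that PBS control and 19.4% in day 7 replicate 2.

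The wider program of skeletal muscle was examined in 57 other genes, of which 44 passed the filter. None passed the edgeR threshold in the 3 comparisons with steady state or at day 4 against day 1, where 7, 8, 11 and 8 of 44 had an unadjusted p under 0.05 (all genes 17.2%, 13%, 13.5% and 13.7%). Up to 6 of 44 passed in these comparisons under any alternative run, the 6 with DESeq2 at day 7 against steady state, where 5.41% of all genes passed with that tool. At day 7 against day 1, 7 of 44 passed (5 lower and 2 higher), and at day 7 against day 4, 1 of 44 (higher), beside 8.13% and 3.90% of all genes. The median log2 fold change of the 44 was -0.29 at day 7 against day 1 (all genes 0.05). The PBS control of day 1 replicate 2 was the highest library for 22 of these 44 genes, beside 14.3% of all genes tested. Mitochondrial genes made up 3.94% of its counts and 0.74% to 2.60% of those of the other libraries. The part of this in its levels was not tested.

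The 5 genes that fell from day 1 to day 7 encode proteins of the sarcomere and the receptor. Myh4, the fast IIb myosin heavy chain, was at 5.60, 3.76 and 5.07 CPM on day 1 and at 0.287, 0.533 and 0.244 on day 7 (log2 fold change -3.74 ± 0.79, edgeR adjusted p = 0.0146). Tnni1, slow troponin I, was at 1.87, 1.21 and 1.38 CPM and then at 0.205, 0.451 and 0.217 (-2.34 ± 0.55, adjusted p = 0.0226). Tpm2, β-tropomyosin, which smooth muscle also expresses, was at 258.9, 203.6 and 156.4 CPM and then at 82.5, 78.4 and 74.9 (-1.39 ± 0.35, adjusted p = 0.0304). In all 3 genes the groups did not overlap. Of the 10 smooth muscle and pericyte markers, 1 passed at day 7 against day 1, Tagln (-1.67 ± 0.41, adjusted p = 0.0265), and genes on the opposite strand overlap 67.9% of its exons. Of the 10, 7 had a negative and 3 a positive log2 fold change, with a median of -0.39. The part of smooth muscle in the Tpm2 result was not tested.

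Myot, the Z-disc protein myotilin, had 15, 14 and 39 counts on day 1 and 4, 2 and 0 on day 7 (-3.77 ± 1.07, adjusted p = 0.0482). Chrng, the γ subunit of the fetal acetylcholine receptor, had 14, 6 and 9 counts on day 1 and 0, 0 and 1 on day 7 (adjusted p = 0.0273), a ratio of pooled counts of 37.3 with a 95% exact interval of 6.18 to 1522 that covers counting error only. For Chrng the fitted fold change depends on the prior count and is not given.

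The genes that rose from day 1 to day 7 were Ampd1, the muscle form of AMP deaminase, and Colq, the collagen tail of acetylcholinesterase. Ampd1 was at 0.453, 0.0929 and 0.168 CPM on day 1 and at 0.308, 5.39 and 2.25 on day 7 (3.43 ± 0.98, adjusted p = 0.0484), and against day 4 its log2 fold change was 4.88 ± 1.08 (adjusted p = 0.0278). Colq was at 20.7, 12.2 and 19.1 CPM on day 1 and at 25.8, 140.4 and 67.8 on day 7 (2.17 ± 0.60, adjusted p = 0.0447). Within day 7 both followed the order of Mylpf and of the thymocyte markers, with replicate 2 highest and replicate 1 lowest, and all 8 thymocyte markers rose at day 7 against day 1 in the same fit. The part of thymocyte RNA in these increases was not tested.

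**Figure D4:**
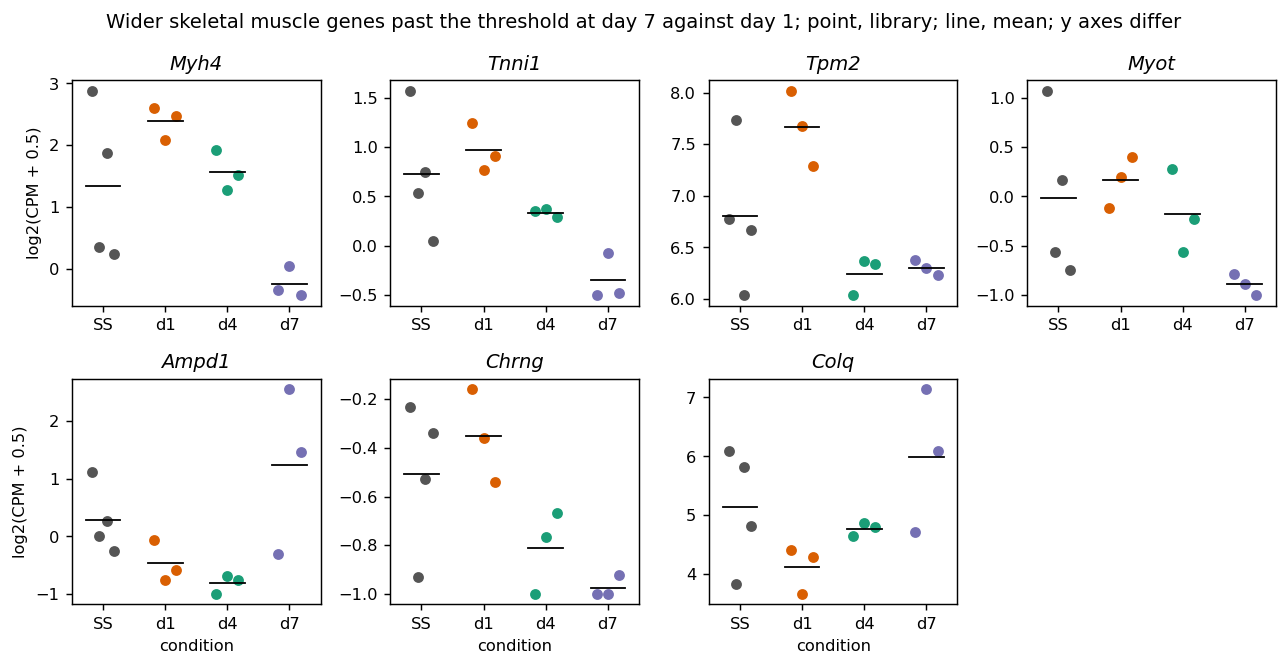
The 7 wider skeletal muscle genes that passed the threshold at day 7 against day 1, as log2(CPM + 0.5) on the y axis (scales differ) by condition; points are libraries, lines are means. Myh4, Tnni1, Tpm2, Myot and Chrng are lower in all 3 day 7 libraries than in all day 1 libraries, and Ampd1 and Colq are highest in day 7 replicate 2.

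These 7 calls were not stable. Their number was 12 with DESeq2, 3 with the replicate block, 1 with the tag family as a covariate, 1 with at least 10 counts required in every library and 4 with only the 2 conditions compared. It was 1, 2 and 2 without day 1 replicate 1, 2 or 3, 2 and 0 without day 7 replicate 2 or 3, 4 without day 4 replicate 2 or 3, and 4 without the PBS control of day 7 replicate 1. The number over all genes in this comparison moved as well. It was 1625 (8.13%) in the main fit, ran from 472 to 2940 under the alternatives and was 2940 (14.7%) with DESeq2.

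By role, the wider genes with the highest levels per kb were as follows. Of the regulators and fusion genes 4 of 10 were tested and 0 passed, among them Mef2c (mean over 13 libraries 49.2 CPM), also expressed outside muscle, and embryonic myosin Myh3 (1.12 CPM), which was at 6.38 and 3.25 CPM in the PBS controls of day 1 replicate 2 and day 7 replicate 1 and at or below 1.57 CPM in the other 11 libraries. Of the thick filament genes 7 of 8 were tested, led by Mybpc2 (11.4 CPM), Myh4 (2.66 CPM) and Myom1 (2.09 CPM), and of the thin filament genes 7 of 8, led by Tpm2 (120.8 CPM), Tnnt1 (1.59 CPM) and Tnnc1 (0.399 CPM). Of the Z-disc genes 7 of 8 were tested, led by Actn3 (25.2 CPM), Ldb3 (8.09 CPM) and Xirp1 (3.79 CPM). Actn3, the α-actinin of fast fibers, was at 76.6 CPM in the PBS control of day 1 replicate 2 and between 11.2 and 34.0 CPM elsewhere. Of the energy metabolism genes 6 of 7 were tested, led by Eno3 (8.04 CPM), Pygm (13.9 CPM) and Pgam2 (3.47 CPM), which encode muscle enolase, glycogen phosphorylase and phosphoglycerate mutase. Of the neuromuscular junction genes 7 of 8 were tested, led by Colq (40.9 CPM), Chrnb1 (13.4 CPM) and Ache (22.3 CPM), and Chrnb1, the β subunit that pairs with the Chrna1 product, varied little (8.78 to 17.4 CPM). Of the genes of excitation-contraction coupling 6 of 8 were tested and 0 passed, led by Jph1 (5.34 CPM), Cacng1 (0.437 CPM) and Casq1 (0.535 CPM), and all 6 had a negative log2 fold change at day 7 against steady state (median -1.19). So did 34 of all 44 wider genes tested. At steady state the 8 coupling genes summed to 28.4 CPM in the PBS control of day 1 replicate 2. They summed to 5.33, 11.3 and 6.05 CPM in the other steady-state libraries and to 4.08 to 4.47 CPM on day 7.

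**Figure D5:**
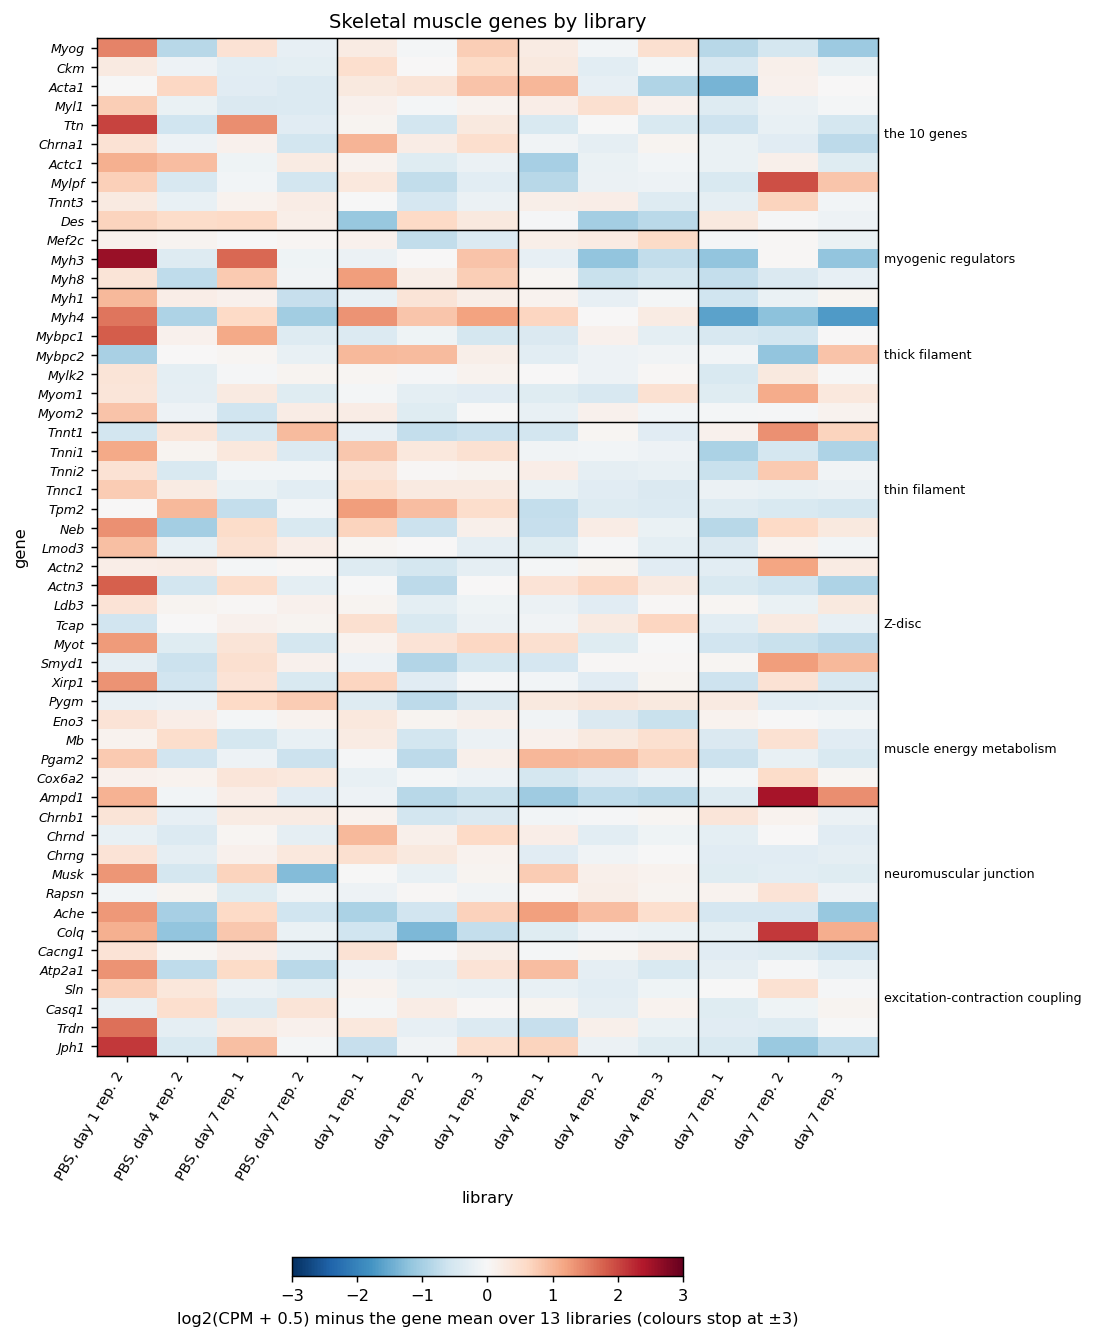
log2(CPM + 0.5) minus the mean over 13 libraries (color) for the 10 members and 43 of the 44 wider genes tested (rows, grouped by role) in each library (columns, grouped by condition). The PBS control of day 1 replicate 2 is highest in 22 of the 44 wider genes (14.3% of all genes tested). Day 7 replicate 2 is highest in 9 (19.4% of all genes), among them Ampd1 and Colq.

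The genes whose pattern was most like that of the members were ranked by Pearson r with the members' mean log2 level over 13 libraries, among 14587 other genes with a mean of at least 1 CPM. Among the 10 nearest were Cldn13 (r = 0.93), Ccr7 (0.92), Rgs1 (0.89), Krt20 (0.89), Ccr4 (0.89), Fsd2 (0.88), Myh3 (0.88), Xirp1 (0.88) and 1810006J02Rik (0.88). Of the 10, only Myh3 and Xirp1 are on the wider skeletal muscle list. Of the 10 nearest, 5 stayed among the nearest 10 without Des, 3 by Spearman rank and 4 without the libraries farthest from the median (the PBS control of day 1 replicate 2 and day 7 replicate 1). Without those libraries, r of the genes named was between 0.63 and 0.88.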

How the data were processed

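Bulk RNA-seq of CD45- thymic stroma was analysed in 13 libraries. According to the paper's methods and the submitters' processing notes, the authors trimmed with Trimmomatic 0.38, used STAR 2.7.0e for alignment to GRCm38.p5 and obtained gene counts from featureCounts 1.6.3 at default settings. The table was deposited as raw, unnormalized counts. Conditions came from the labels. The paper's methods call the bulk libraries biological replicates. The labels do not say whether each is a separate animal, so p-values measure the spread between libraries, whatever its source.

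All libraries entered 1 fit in edgeR 4.0.16 (R 4.3.3) with condition as the term, TMM scaling, filterByExpr() by condition and quasi-likelihood testing, with p-values adjusted by Benjamini-Hochberg over 19984 genes. SEs were computed from the log2 fold change and its F statistic. DESeq2 1.42.0 was an alternative. Tested on simulated data for day 7 against steady state (19984 genes, 200 of them changed 4-fold), edgeR recovered 99% with 3.88% false calls, and DESeq2 97.5% with 12.2% false calls. The changed genes had means above 1 CPM, which only Des, Mylpf and Ttn among the members reached. The simulated dispersion was below the fitted common value of 0.177. These rates therefore do not give the power for the members. Exon lengths and positions are from GENCODE M21 (GRCm38), promoters from RefSeq. CPM per kb divides by exonic length.

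The members and lists were chosen with earlier results of these data known. By rule all 10 members are named, up to 3 genes per wider list by level per kb, and the 10 genes most like the members. Some of the genes this rule gives are not reported here. The other genes named (Tnni1, Myot, Chrng, Ampd1, Tagln, Aire, and Myod1, Myf5, Myf6 and Pax7) were chosen after their values were seen. Marker lists of 10 TEC, 5 fibroblast, 5 endothelial, 8 thymocyte, 10 smooth muscle and pericyte, 8 cardiac and 4 fat genes were summed per library. The 4 fat genes summed to 4.86 to 106 CPM.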

Additional observations from a re-analysis of the deposited data

Results flagged for a closer look

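In groups of 4, a library was singled out where its gap to the nearest of the others made up more of the group's range than Dixon's critical value allows. Only steady state has 4 libraries. Of the 34 genes examined, 1 met this, and chance gives about 1 in 20, or 1.7 of 34. Myl1 was at 1.27 CPM in the PBS control of day 1 replicate 2 and between 0.280 and 0.425 CPM in the other steady-state libraries.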

How the results depend on the processing

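The 60 log2 fold changes of the members were recomputed 1186 times under the alternatives. Of these, 1127 kept direction and side of the threshold, 53 changed sign with neither value past the threshold, 6 passed only under the alternative, and 0 were lost. The number of members past the threshold, 0 in each main comparison, was 1 with DESeq2 at day 7 against steady state, 2 with DESeq2 at day 7 against day 1 and 1 with DESeq2 for any difference. When libraries were left out in turn it was 0 to 2 at day 7 against day 1 (2 without the PBS control of day 1 replicate 2), 0 to 1 at day 7 against day 4 (1 without day 7 replicate 1) and 0 in the other comparisons. RLE scaling, no filter, a robust dispersion, at least 10 counts in every library, only the conditions compared and the tag family as a covariate gave 0 members in every comparison they could be run for. The cause of these differences was not tested.

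Over all genes the number past the threshold ranged widely: 228 to 1399 (main 469) at day 1 against steady state, 19 to 645 (58) at day 4, 0 to 1081 (1) at day 7, 56 to 960 (285) at day 4 against day 1, 472 to 2940 (1625) at day 7 against day 1, 0 to 1919 (779) at day 7 against day 4 and 677 to 3665 (1330) for any difference. For the wider genes it was 0 to 12 at day 7 against day 1 (7), 0 to 5 at day 7 against day 4 (1) and 0 to 12 for any difference (2).

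The replicate block, run on the 9 libraries after TBI, gave 0 members in the 3 comparisons among days. Deviations of same-numbered libraries from their group means had correlations of -0.67 to 0.20. Differently numbered libraries were not compared, so these values do not settle whether the numbers pair the samples. The block was not run against steady state, whose columns carry no matching numbers. Counts per library ran from 4 to 141 for Myog and from 2537 to 12178 for Des, and neither passed in any comparison of the main edgeR fit. The part of depth in this was not tested.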
